A study of Mus musculus with 80 samples.

Results

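AgRP neurons of the arcuate nucleus drive feeding, and the genes described here are 40 genes of autophagy and the lysosome in their RNA: 13 of initiation, 12 of conjugation, 5 cargo receptors and 10 of the lysosome, out of 23337 genes in the table. They were chosen by gene symbol, from what the genes are known to do, but with earlier results of these data known. The symbols of 39 stand in the table as listed. Atg101 stands there under its older symbol 9430023L20Rik, which RefSeq lists as a synonym.

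The series holds 80 libraries of RNA labelled as AgRP+ arcuate neurons of mice, in 20 groups. GFP+ cells were sorted from arcuate slices of NPY::hrGFP mice, in which the Npy promoter drives the reporter, so the gate takes NPY cells whether or not they express AgRP. These mice were fed ad libitum (6 libraries at ZT2, that is 2 h after lights-on by the usual convention, and 3 at ZT14), fasted for an effective 24 h (7 and 8) or fasted for 24 h and refed for 1 h (5 and 4). Ribosome-bound RNA of Agrp-Cre cells was taken by immunoprecipitation from AGRP-Cre;RiboTag mice that were fed ad libitum (3 and 4) or fasted for 24 h (5 and 5). Another set compared AGRP-Cre;BMAL1fx, called knockout here, with WT;BMAL1fx, called control, both of which carry the floxed Bmal1 allele, after leptin or after PBS at ZT2 and ZT14 (4 libraries for control PBS at ZT2 and 3 in each of the other groups). The last set held the same genotypes at ZT5 (2 control and 3 knockout libraries), with no treatment given in the labels. The feeding state of the leptin and ZT5 mice, the way their cells were collected and the age and sex of the animals are not given in the sources used here. The labels do not say that libraries of a group came from separate mice, and p-values then measure only how these libraries scatter, which may be technical.

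Macroautophagy begins when the ULK1 kinase complex (Ulk1 or Ulk2, Rb1cc1 that encodes FIP200, Atg13 and Atg101) and the Beclin 1 lipid kinase complex (Pik3c3, Pik3r4, Becn1, Atg14) start a membrane that ATG9 vesicles, ATG2 lipid transfer and WIPI proteins extend. A pair of ubiquitin-like conjugation systems then fixes LC3 and GABARAP proteins to that membrane, where cargo receptors such as p62 bind them, and the closed vesicle fuses with the lysosome, whose proteases digest the content. The transcription factors TFEB, TFE3 and MITF bind a short motif in the promoters of many of these genes when nutrients are scarce, and autophagy within AgRP neurons is known to supply lipid during a fast and to favour Agrp expression.

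Values are the deposited normalised counts. The reads recovered from the values of 79 libraries came to 8157551 to 27380837 per library in the sorted cells, 11352663 to 23086454 in RiboTag, 5925102 to 33976545 in the leptin set and 10813156 to 17292533 at ZT5. Hsd11b2, which was at 1048 to 3971 in the 29 libraries labelled with Cre outside the ZT5 set and at 0 to 23.3 in the 46 labelled without, went against the label of 2 ZT5 libraries: it was at 4628 in the library labelled control 1 and at 11.2 in the library labelled knockout 3. Libraries that correlated with the rest of their group at r under 0.9 were RiboTag fasted library 3 at each time, sorted fasted library 3 at ZT2, libraries 3 and 5 at ZT14 and sorted refed library 4 at ZT2. In sorted ad libitum library 4 at ZT2 the values were not whole multiples of a read. Counts of called members without these 9 libraries, a choice made after seeing the data, are given with the limits.

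Levels of the members in the 9 sorted ad libitum libraries were divided by the length of each gene's longest annotated transcript. That transcript need not be the one expressed, so the order of the genes depends on this choice. Ctsl, for example, was divided by 6168 nt and stood at 1224 ± 226. Per kilobase, the levels ran from 4650 ± 1101 (SD, n = 9) for Gabarap, which encodes a protein fixed to the autophagosome, to 1.69 ± 1.49 for Mitf. Sqstm1, which encodes the receptor p62, was second on that scale at 4243 ± 871, and the protease gene Ctsb next at 2417 ± 578. All 3 transcription factor genes were at the bottom, Tfe3 at 21.9 ± 6.66 and Tfeb at 6.85 ± 4.02 normalised counts per kb. Lamp1, the gene of the main lysosomal membrane glycoprotein, was in the middle, at 353 ± 154.

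Promoters are shown for the 4 members whose fasting difference was called at both times in sorted cells and whose promoter is in the RefSeq table with the motif CACGTG, the core bound by TFEB and its relatives. Each is 300 bases, from 250 before to 50 after the gene start on GRCm38.p6, written 5′ to 3′ on the strand of the gene, with CACGTG, or the longer TCACGTGA that contains it, in capitals. Atg3 lies at chr16:45158579-45158878 on the + strand, Lamp1 at chr8:13158911-13159210 on the + strand, Ctsd at chr7:142387778-142388077 on the - strand and Mcoln1 at chr8:3500269-3500568 on the + strand.
Atg3: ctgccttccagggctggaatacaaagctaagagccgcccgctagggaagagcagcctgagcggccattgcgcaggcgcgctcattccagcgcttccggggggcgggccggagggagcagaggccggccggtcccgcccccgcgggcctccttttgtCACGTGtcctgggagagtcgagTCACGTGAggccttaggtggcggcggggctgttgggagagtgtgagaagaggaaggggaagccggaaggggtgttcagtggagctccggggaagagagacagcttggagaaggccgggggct
Lamp1: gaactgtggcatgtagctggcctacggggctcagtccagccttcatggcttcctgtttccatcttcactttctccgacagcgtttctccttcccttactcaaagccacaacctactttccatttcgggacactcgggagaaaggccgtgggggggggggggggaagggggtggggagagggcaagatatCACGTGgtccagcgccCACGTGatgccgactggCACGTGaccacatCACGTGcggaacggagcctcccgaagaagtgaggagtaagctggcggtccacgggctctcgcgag
Ctsd: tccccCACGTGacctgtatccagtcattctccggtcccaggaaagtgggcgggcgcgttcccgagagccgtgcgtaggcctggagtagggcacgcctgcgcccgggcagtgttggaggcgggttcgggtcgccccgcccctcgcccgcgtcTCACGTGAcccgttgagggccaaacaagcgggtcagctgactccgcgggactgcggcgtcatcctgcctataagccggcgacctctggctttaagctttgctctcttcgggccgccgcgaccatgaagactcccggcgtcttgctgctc
Mcoln1: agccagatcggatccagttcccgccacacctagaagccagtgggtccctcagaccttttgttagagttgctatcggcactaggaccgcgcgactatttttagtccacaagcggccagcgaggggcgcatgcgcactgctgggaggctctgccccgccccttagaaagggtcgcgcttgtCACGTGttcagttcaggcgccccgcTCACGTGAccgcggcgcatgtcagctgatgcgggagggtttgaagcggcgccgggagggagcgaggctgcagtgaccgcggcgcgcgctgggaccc
The Lamp1 promoter holds CACGTG 4 times within the 61 bases before the gene start, at -61, -45, -28 and -15, counted to the first base of the match. Atg3 (-94 and -72), Ctsd (-245 and -99) and Mcoln1 (-71 and -46) each hold CACGTG in 2 places, the second being TCACGTGA. Among all members, 31 matched a promoter in the table, and 9 of these 31 (29%) held CACGTG: Atg14, Atg3, Atg5, Atg7, Bnip3, Ctsd, Ctsl, Lamp1 and Mcoln1. Of all 27025 gene symbols with a promoter in the table, 8.09% held it. TCACGTGA was in 3 of the 31 (9.68%) and in 1.12% of all symbols. Both motifs read the same on both strands. The other members called with fasting at both times in sorted cells were Gabarapl1, Lamp2, Map1lc3a and Npc1. The promoters of Gabarapl1 and Lamp2 in the table lack CACGTG, and Map1lc3a and Npc1 have no promoter there. Atg14, Atg5, Atg7, Bnip3 and Ctsl hold CACGTG and were not called at both times. A match is a description of the letters and not a site.

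Between fasted and ad libitum sorted libraries at ZT2, 16 of the 40 members were called, 14 higher and 2 lower in fasted libraries. Called means, here and below, an adjusted p under 0.05 by limma on log2(value + 1). The adjustment is that of Benjamini and Hochberg over the genes tested, 14931 here. Of all genes tested, 37.5% were called there, so the members' share is near the background. Their direction was less even: 18.3% of all genes were called higher and 19.2% lower, and the median difference was 0.19 over members and -0.02 over all genes. Lysosome genes had 6 of 10 called higher and 1 lower with a median of 0.69, cargo receptors 2 of 5 higher with a median of 0.51, conjugation genes 4 of 12 higher with a median of 0.19, and initiation genes 2 of 13 higher and 1 lower with a median of -0.22. In bulk RNA of this kind, fewer cells of a type and less RNA per cell cannot be told apart. The fasted libraries also share with the ZT5 set a profile that the ad libitum ones lack, described below. The fast and any unrecorded difference in handling therefore cannot be told apart in the fasting differences that follow.

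Lamp1 had the largest fasting difference of the 40 at ZT2. Its normalised counts in the 6 ad libitum libraries at ZT2 had a lowest of 528, a median of 761 and a highest of 1540, and in the 7 fasted libraries 6437, 7161 and 10458. The groups were apart by a wide margin, and the difference was 3.22 (SE 0.21, adjusted p = 1.81e-13, a 9.34-fold ratio on the value + 1 scale). At ZT14 the ad libitum libraries were at 871, 539 and 508 and the 8 fasted libraries at 4708, 6585 and 9628 (lowest, median, highest). Again no fasted library came near the fed ones, and the difference was 3.40 (SE 0.26, adjusted p = 1.78e-11). Exons of Lamp1 share 249 bases with Grtp1 on the opposite strand, and whether reads were counted by strand is not given in the sources used here.

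**Figure D1:**
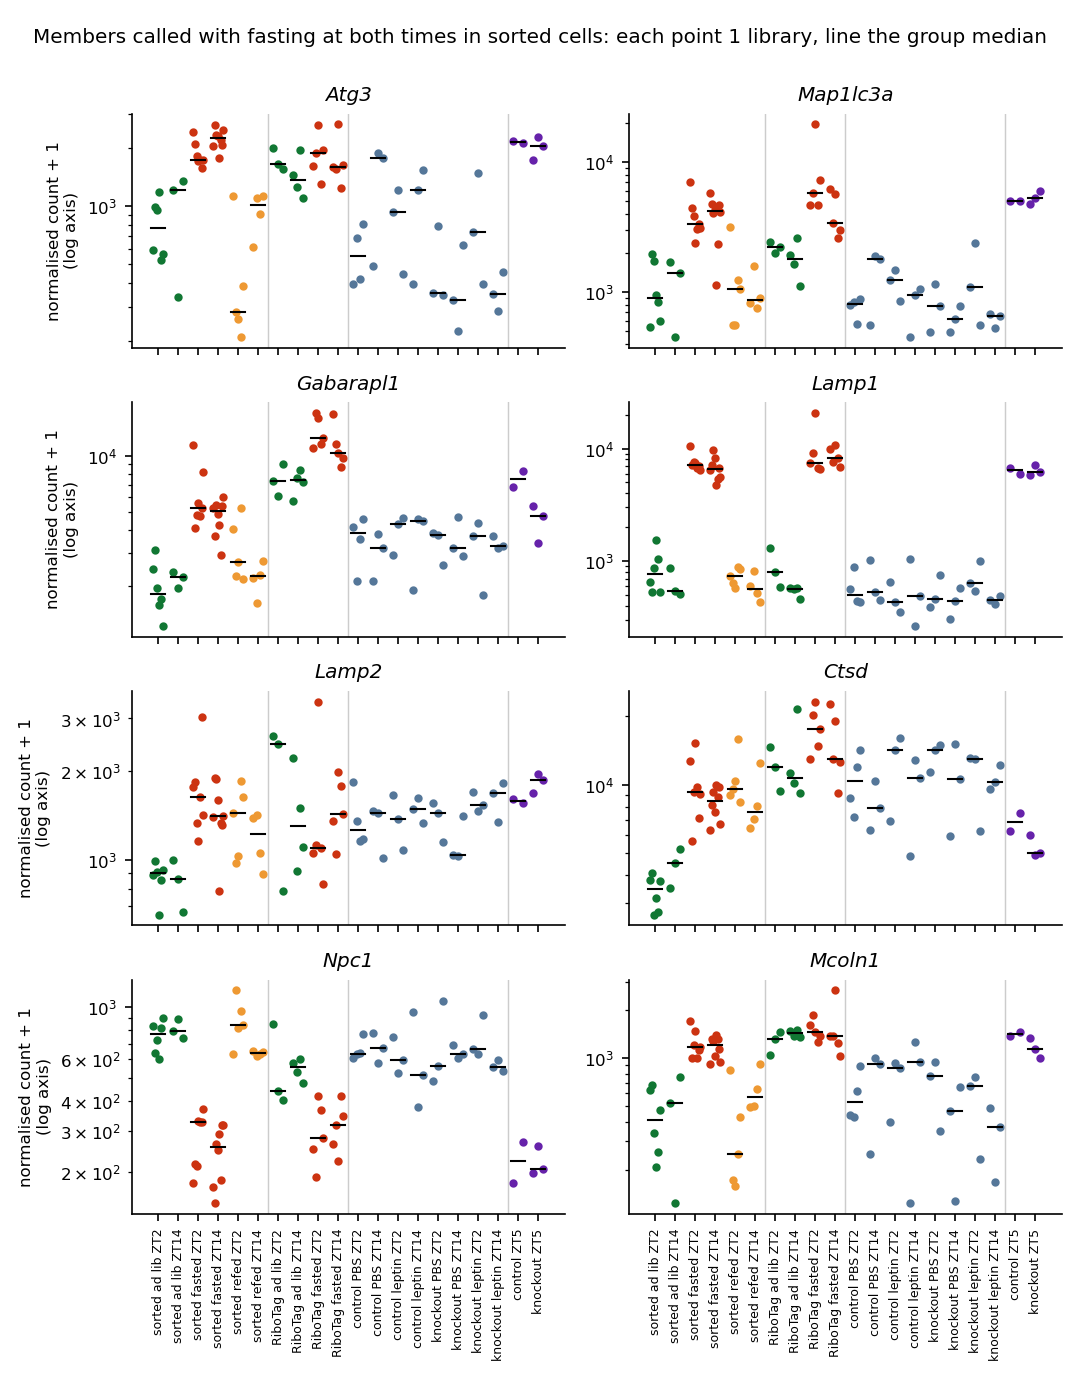
Normalised count plus 1 (log axis) of the 8 members called with fasting at both times in sorted cells, for every library of the 20 groups; each point is 1 library and each line a group median. Lamp1 is at 4708 or more in all fasted and ZT5 libraries and at 1540 or less in all others, while Npc1 is lower in sorted fasted (147 to 369) than in sorted ad libitum and refed libraries (599 to 1173) and Ctsd stays high in refed and PBS libraries.

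Among the other lysosome genes, Ctsd (cathepsin D, an aspartic protease) had a lowest, median and highest of 2661, 3451 and 4089 in ad libitum libraries and 5632, 9270 and 15295 in fasted libraries at ZT2. No libraries overlapped and the difference was 1.50 (SE 0.20, adjusted p = 3.12e-07). Mcoln1, which encodes the lysosomal calcium channel TRPML1, went from 207, 405 and 681 to 996, 1181 and 1704, again without overlap (1.64, SE 0.34, adjusted p = 0.000273). Lamp2, the partner glycoprotein that chaperone-mediated autophagy also uses, went from 652, 900 and 990 to 1159, 1635 and 3030 (0.94, SE 0.20, adjusted p = 0.000399). The cysteine protease genes changed less: Ctsb rose by 0.77 (SE 0.16, adjusted p = 0.000188) with every fasted library above every fed one, and Ctsl by 0.61 (SE 0.22, adjusted p = 0.0262) with 6 of 7 above. Npc1, whose protein exports cholesterol from the lysosome, was the exception and fell. Its lowest, median and highest were 599, 767 and 899 in ad libitum and 180, 324 and 369 in fasted libraries, with no overlap and a difference of -1.45 (SE 0.20, adjusted p = 6.22e-07). The transcription factor genes were low and did not pass the test: Tfe3 differed by 0.45 (adjusted p = 0.267, but 1.09 and called at 0.00133 with the correction for GC content and transcript length), Tfeb by -1.0 (adjusted p = 0.444, at 0 in 3 fasted libraries) and Mitf by -1.49 (adjusted p = 0.157, at 0 in 3 fasted libraries).

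In the conjugation group, Map1lc3a, one of the LC3 genes, went from a lowest, median and highest of 534, 895 and 1967 to 2383, 3331 and 7104, and Gabarapl1, a GABARAP paralogue, from 1221, 1823 and 3129 to 4091, 5232 and 11346. Both pairs of groups were fully apart (differences of 1.92, SE 0.39, adjusted p = 0.000185, and 1.62, SE 0.23, adjusted p = 1.41e-06). Atg3, the E2-like enzyme that hands LC3 to the lipid, went from 524, 772 and 1191 to 1580, 1737 and 2419 (1.28, SE 0.29, adjusted p = 0.000729). Atg16l1, which places the conjugation complex on the membrane, rose by 0.76 (SE 0.21, adjusted p = 0.00424), with 5 of 7 fasted libraries above all fed ones. Their close relatives did not pass the test: Map1lc3b differed by -0.02 (SE 0.19), Gabarapl2 by -0.10 (SE 0.23) and Gabarap by -0.48 (SE 0.22, adjusted p = 0.092). With the GC and length correction Gabarap was called lower (-0.76, adjusted p = 0.000185), as it was without fasted library 2 (adjusted p = 0.0466). The difference between paralogues was not tested. For the remaining enzymes the differences ran from -0.56 for Atg10 (adjusted p = 0.107), the E2-like enzyme for ATG12, to 0.35 for Atg5. Atg10 was called lower with the same correction (-0.73, adjusted p = 0.000617) and without fasted library 2 (0.0499).

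Sqstm1 led the cargo receptors. It went from a lowest, median and highest of 7186, 11321 and 14152 to 17625, 21679 and 30368, without overlap (1.06, SE 0.18, adjusted p = 2.1e-05). Optn, which encodes optineurin, a receptor for damaged mitochondria and bacteria, rose by 0.66 (SE 0.16, adjusted p = 0.00123), with 6 of 7 fasted libraries above all fed ones. The mitochondrial receptor genes did not pass, Bnip3 at 0.51 (SE 0.21, adjusted p = 0.0543) and Bnip3l at -0.25 (SE 0.16), and Nbr1, a relative of p62, differed by -0.24 (SE 0.24).

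Initiation genes had called members in both directions. Becn1, the core of the lipid kinase complex, went from a lowest, median and highest of 866, 1513 and 2128 to 2068, 2670 and 3111, with 6 of 7 fasted libraries above all fed ones (0.81, SE 0.16, adjusted p = 9.54e-05). Atg101 went from 451, 726 and 860 to 954, 1204 and 1567 without overlap (0.80, SE 0.17, adjusted p = 0.00047). Pik3r4, the regulatory subunit VPS15 of the same kinase, fell from 317, 426 and 593 to 132, 180.5 and 547, with 6 of 7 below all fed libraries (-0.98, SE 0.32, adjusted p = 0.0153). Next in order were Atg13 at 0.47 (adjusted p = 0.0567) and Rb1cc1 at -0.65 (adjusted p = 0.0632), neither called. Ulk1, Ulk2, Pik3c3, Atg14, Atg9a, Atg2a, Wipi1 and Wipi2 differed by -0.85 to 0.36.

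**Figure D2:**
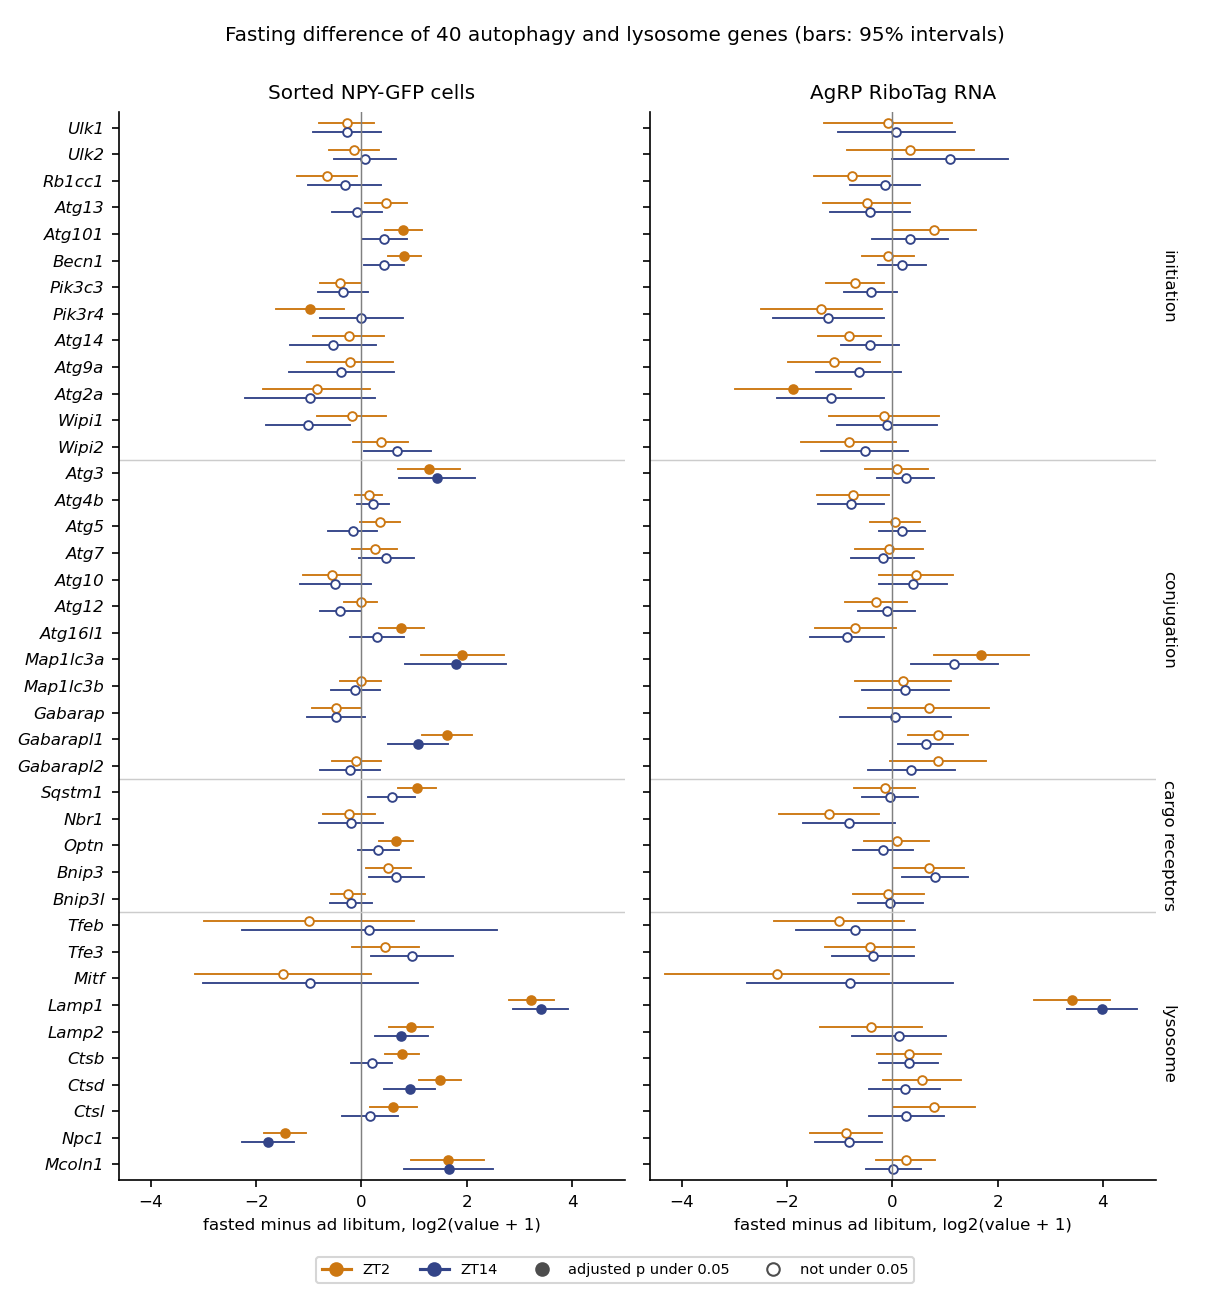
Fasted minus ad libitum difference on the log2(value + 1) scale for the 40 members, grouped by role, in sorted NPY-GFP cells (left) and AgRP RiboTag RNA (right) at ZT2 and ZT14; bars are 95% intervals and filled points have an adjusted p under 0.05. Lamp1 stands far to the right in all 4 comparisons (3.22 to 3.98), and Npc1 stands to the left in all 4, filled only in sorted cells.

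Correcting for GC content and transcript length left 14 members higher and 5 lower at ZT2, with Atg101 (adjusted p = 0.0511) and Optn (0.249) lost, and edgeR's quasi-likelihood test on recovered reads lost Pik3r4 (0.0974). Ctsl lost its call without ad libitum library 1 or 6 or fasted library 1, 2 or 3 (adjusted p = 0.0535 to 0.0653), and 12 of the 16 calls held under all 20 alternatives run for them.

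At ZT14, 8 members were called with fasting, 7 higher and 1 lower, where 18.5% of all genes were called (9.66% higher, 8.81% lower). All 8 were also called at ZT2 in the same direction, in separate libraries. How many of all genes called at ZT14 were also called at ZT2 was not counted, so these 8 have no background to be read against. Map1lc3a was at 1707, 447 and 1399 in ad libitum libraries and at a lowest, median and highest of 1135, 4216 and 5760 in fasted libraries, 7 of 8 of which were above all fed ones (1.79, SE 0.47, adjusted p = 0.00717). Atg3 was at 1207, 335 and 1355 against 1784, 2265 and 2650 (1.44, SE 0.36, adjusted p = 0.00409). Mcoln1 was at 524, 122 and 763 against 922, 1212 and 1406 (1.66, SE 0.42, adjusted p = 0.00476). In each of these genes ad libitum library 2 was far below its 2 companions. Without that library, Atg3 (adjusted p = 0.176), Map1lc3a (0.161), Gabarapl1 (0.0599), Mcoln1 (0.203) and Lamp2 (0.0952) lost their calls, and 3 members were left: Lamp1, Ctsd and Npc1.

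Npc1 fell again, from 789, 885 and 735 to a lowest, median and highest of 147, 256 and 317 (-1.77, SE 0.24, adjusted p = 2.11e-06), with no overlap. Ctsd rose from 3507, 4501 and 5186 to 6327, 8475 and 9918 (0.92, SE 0.24, adjusted p = 0.00634), also without overlap. Its call was lost without ad libitum library 1 (adjusted p = 0.0666) and with the GC and length correction (0.154). Gabarapl1 rose by 1.08 (SE 0.28, adjusted p = 0.00702; 0.77 and 0.106 with that correction) with all 8 fasted libraries above the fed ones, and Lamp2 by 0.76 (SE 0.25, adjusted p = 0.0299) with 7 of 8. Lamp2 was also lost without ad libitum library 3 (0.194) or fasted library 2 or 3 (0.0538 and 0.0529). No initiation gene and no cargo receptor was called. Sqstm1 had no overlap (10236, 13033 and 13693 against a lowest, median and highest of 15675, 17312 and 22946) and an adjusted p of 0.0646. Becn1, at 0.43 (SE 0.19), Wipi1, a phosphoinositide-binding protein gene, at -1.02 (adjusted p = 0.0667), Tfe3 at 0.96 (adjusted p = 0.0767) and Bnip3 at 0.66 also stayed above the threshold. Several of these were called in alternatives: Tfe3 (1.33, adjusted p = 0.003) and Wipi1 (0.0212) with the GC and length correction, Wipi1 with edgeR (0.033) and without fasted library 3 (0.0479), Tfe3 without fasted library 8 (0.045), and Bnip3 without fasted library 5 (0.0124) or 6 (0.0463). Without fasted library 5, Sqstm1 (0.0403), Becn1 (0.0347) and Atg101 (0.0279) were called higher too. The correction also called Gabarap (-0.71) and Atg10 (-0.67) lower and Wipi2 (0.86) higher. Fasted library 5 was the lowest of the 8 for Map1lc3a (1135), Lamp2 (784), Ctsl (3766), Ctsb (9950), Atg101 (613) and Becn1 (1725), and the highest for Pik3r4 (1141), Rb1cc1 (2145), Nbr1 (1792) and Atg2a (845).

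Tested as the difference between the fasting differences, 0 of 40 members were called between ZT14 and ZT2 in sorted cells by limma, and 1 had an unadjusted p under 0.05 (Ctsb), against 0% and 4.33% of all genes. In RiboTag the same test called 0 members, with 0 at an unadjusted p under 0.05, against 0% and 1.63% of all genes. In sorted cells these differences ran from -0.83 to 1.15, and the 95% interval stayed within 1 log2 unit for 19 of 40 members. Removing the libraries with low correlation or values that were not whole raised the ZT14 count to 13 (11 higher and 2 lower), and the GC and length correction gave 7 higher and 4 lower.

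Markers of other cells moved with fasting in the sorted cells. Of 9 astrocyte markers, 4 were called higher at ZT2 and 5 at ZT14, of 10 markers of other hypothalamic neurons 7 and 3, of 5 tested microglial markers 1 each time, and 0 of 4 oligodendrocyte markers. The summed astrocyte level was 3291 to 6033 in ad libitum and 2222 to 38967 in fasted libraries, with medians of 4781 and 4219. The summed microglial level was 3.95 to 85.8 in ad libitum, 77.4 to 1384 in fasted and 169 to 532 in refed libraries. The summed AgRP neuron level was 196420 to 470703 in ad libitum and 171048 to 1059320 in fasted libraries. Singly, AgRP neuron markers went both ways: of 10, 4 were called higher and 4 lower at ZT2, and 2 and 1 at ZT14. Of 5 POMC neuron markers, 3 were called higher and 1 lower at ZT2, and 0 and 1 at ZT14. Of 6 tanycyte and ependymal markers, 1 and 2 were called higher, and of 2 tested endothelial markers 1 each time. The part of other cells in the members' fasting differences was not tested.

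Genes of the same machinery outside the 40 were counted from 4 lists. At ZT2, lysosomal hydrolases and membrane proteins had 16 of 32 tested genes called higher and 1 lower, V-ATPase subunits 7 of 17 higher and 0 lower, other autophagy genes 9 of 24 higher and 3 lower, and mTORC1 and AMPK genes 10 of 35 higher and 11 lower. Fuca1 (alpha-L-fucosidase) was at 919 ± 156 (SD, n = 6) in ad libitum and 3176 ± 758 (SD, n = 7) in fasted libraries, a difference of 1.77, and Ctsz (cathepsin Z) differed by 1.77 too. Atp6ap1 and Atp6v1b2, parts of the proton pump that acidifies the lysosome, differed by 1.52 and 1.32. Rragc and Rragb, GTPases that bring mTORC1 to the lysosome, rose by 1.65 and 1.16, while Atg2b, the lipid transfer paralogue of Atg2a, fell by 1.98 and Vmp1, a scramblase of the phagophore, rose by 1.13. At ZT14 the same lists had 6 and 0, 3 and 0, 4 and 3, and 4 and 4 genes called higher and lower. Of all genes tested, 18.3% were called higher and 19.2% lower at ZT2, and 9.66% and 8.81% at ZT14.

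Between libraries refed for 1 h after the fast and fasted libraries at ZT2, 8 members were called, 3 higher and 5 lower in refed libraries. Of all genes, 21.8% were called there (10.8% higher, 11.1% lower). The fasted libraries share with the ZT5 set a profile that the refed ones lack, described below. Refeeding and any unrecorded difference in handling therefore cannot be told apart. Refed libraries had Lamp1 at 731, 638, 573, 881 and 851, all far below the fasted libraries and within the ad libitum range (-3.36, SE 0.22, adjusted p = 2.38e-13). Npc1 was at 633, 1173, 815, 957 and 836, all above the fasted libraries (1.67, SE 0.21, adjusted p = 2.36e-07). Atg3 was at 1130, 282, 258, 208 and 385, all below the fasted libraries, and 4 of the 5 were also below every ad libitum library (-2.34 against fasted, SE 0.31, adjusted p = 6.67e-07). Library 1 stood apart there and also in Map1lc3a (3172, against 555, 556, 1233 and 1059) and Mcoln1 (838, against 170, 156, 250 and 424). Mcoln1 fell by 2.03 (SE 0.36, adjusted p = 6.94e-05), Map1lc3a by 1.81 (SE 0.41, adjusted p = 0.00123) and Gabarapl1 by 0.93 (SE 0.25, adjusted p = 0.00518), the last 2 with 4 of 5 refed libraries below all fasted ones. Wipi1 rose by 0.99 (SE 0.34, adjusted p = 0.0336) and Nbr1 by 0.71 (SE 0.26, adjusted p = 0.0461).

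Both of these last calls were fragile: Nbr1 was lost under 14 alternatives, among them leaving out refed library 4 (adjusted p = 0.185), and Wipi1 without refed library 4 (0.11) or 5 (0.0894) or fasted library 4 (0.056) or 5 (0.0664). The GC and length correction gave 5 higher and 3 lower and lost Map1lc3a (adjusted p = 0.177) and Gabarapl1 (0.257).

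Markers of other cells moved with refeeding too. Against fasted libraries 4 of 9 astrocyte markers were called lower at ZT2 and 2 at ZT14, with median differences of -2.19 and -3.07, and 1 of 6 tanycyte and ependymal markers and 1 of 4 tested oligodendrocyte markers were called lower at ZT2. Of 10 AgRP neuron markers, 4 were called higher and 1 lower at ZT2, and 3 and 1 at ZT14. The summed astrocyte level in the 9 refed libraries was 1816 to 3230. The part of these cells in the members' differences was not tested.

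At ZT14, 5 members were called with refeeding, 1 higher and 4 lower, where 11.7% of all genes were called (6.36% higher, 5.3% lower). Lamp1 was at 603, 824, 523 and 434 (-3.50, SE 0.23, adjusted p = 4.13e-13) and Npc1 at 651, 621, 633 and 643 (1.44, SE 0.22, adjusted p = 1.1e-05), both without overlap with fasted libraries. Atg3 was at 616, 1106, 913 and 1132 (-1.28, SE 0.32, adjusted p = 0.00598), Gabarapl1 at 2209, 1626, 2297 and 2734 (-1.08, SE 0.26, adjusted p = 0.00353), and Map1lc3a at 823, 1574, 757 and 907 (-1.86, SE 0.43, adjusted p = 0.00257). Mcoln1 fell short at -0.91 (adjusted p = 0.121). With edgeR the split was 2 higher and 4 lower, and with the GC and length correction it was 2 and 3, with Atg3 (adjusted p = 0.0563) and Gabarapl1 (0.0845) lost.

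Some members differed between refed and ad libitum libraries. Against ad libitum libraries at ZT2, 7 members were called in refed libraries, 6 higher and 1 lower, where 17.7% of all genes were called (9.01% higher, 8.72% lower). Markers of other hypothalamic neurons moved in the same comparison, with 5 of 10 tested called higher (median difference 1.58), as were 2 of 5 POMC neuron, 4 of 10 AgRP neuron and 2 of 9 astrocyte markers, and their part in the result was not tested. Ctsd was at 8981, 9537, 10376, 15873 and 8336, all above the highest ad libitum library of 4089 (1.64, SE 0.21, adjusted p = 2.41e-06). Becn1 was at 2325, 1902, 2074, 2390 and 2779 (0.63, SE 0.17, adjusted p = 0.00947), with 3 of 5 above all ad libitum libraries. Atg16l1 (0.74, SE 0.23, adjusted p = 0.0209), Sqstm1 (0.60, SE 0.20, adjusted p = 0.0301), Atg13 (0.62, SE 0.21, adjusted p = 0.0374) and Lamp2 (0.64, SE 0.22, adjusted p = 0.0422) were also higher, and Atg3 was lower (-1.06, SE 0.32, adjusted p = 0.0187). With fasting at ZT2, Atg3 had differed the other way (1.28), and Atg13 had not been called. Without refed library 4, which was the highest of the 5 for Ctsd, Sqstm1, Atg13, Atg16l1 and Lamp2, 2 calls were left, Ctsd and Becn1, while Atg13 (adjusted p = 0.218), Atg16l1 (0.098), Atg3 (0.0932), Lamp2 (0.155) and Sqstm1 (0.118) were lost. Leaving out ad libitum library 3, 4 or 5 left 4 calls each, and edgeR gave 5 higher and 0 lower. At ZT14 limma called 0 of 40 members in refed against ad libitum libraries, with 2 at an unadjusted p under 0.05, where 0.375% of all genes were called and 6.43% had an unadjusted p under 0.05. Ctsd was at 6413, 7035, 8023 and 12430 there, all above the 3 ad libitum libraries, with an adjusted p of 0.174. Of the lysosomal hydrolase and membrane genes outside the 40, 10 of 32 were called higher and 1 lower in refed against ad libitum libraries at ZT2.

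Control PBS libraries at ZT2, a separate set with another genotype, also differed from the sorted ad libitum libraries at ZT2, in a comparison added after the data had been seen. There 6 members were called, all higher, where 7.75% of all genes were called (5.09% higher, 2.66% lower): Ctsd (1.62, adjusted p = 4.96e-05), Becn1 (0.68, adjusted p = 0.00594), Atg16l1 (0.91, adjusted p = 0.0254), Wipi1 (1.10, adjusted p = 0.0287), Lamp2 (0.65, adjusted p = 0.0466) and Gabarapl1 (0.86, adjusted p = 0.0477). Ctsd was at 8719, 7192, 11962 and 14257 in PBS libraries, overlapping the refed libraries and above every ad libitum one. Without ad libitum library 3, 4 or 5 or PBS library 3 or 4, 2 or 3 members were left, and Ctsd and Becn1 kept their calls without any single library. Set, genotype and PBS treatment cannot be told apart here, and the feeding state and cell collection of the PBS mice are not given. The ad libitum libraries are those of the refeeding comparison.

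In RiboTag RNA, which also holds markers of other cells (levels below), 3 members were called between fasted and ad libitum libraries at ZT2. Of these 2 were higher and 1 lower with fasting, where 7.89% of all genes were called (4.08% higher, 3.81% lower). The members' 3 of 40 are thus near the background. Here too the fast and any unrecorded difference in handling cannot be told apart. Lamp1 was at 1304, 808 and 587 in ad libitum and at 7507, 9060, 20674, 6662 and 6604 in fasted libraries, with no overlap (3.41, SE 0.34, adjusted p = 3.98e-06). Map1lc3a was at 2436, 2004 and 2221 against 4712, 5816, 19634, 4726 and 7289 (1.69, SE 0.43, adjusted p = 0.0222), again apart. Atg2a, whose protein feeds lipid into the growing membrane, was at 587, 974 and 748 against 625, 124, 69.7, 272 and 231 (-1.89, SE 0.52, adjusted p = 0.0342), with 4 of 5 fasted libraries below. Gabarapl1 was at 7276, 6041 and 8975 against 11027, 16913, 15934, 11591 and 12478, without overlap, but with an adjusted p of 0.0543 (0.87, SE 0.27). Fasted library 3 was the highest of its group for Lamp1, Map1lc3a, Gabarap (33893, against at most 6580 in the others) and Lamp2 (3418, against at most 1121).

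Atg2a lost its call in 9 alternatives, and both Atg2a (adjusted p = 0.0785 to 0.156) and Map1lc3a (0.0667 to 0.104) lost theirs without any 1 of the 3 ad libitum libraries. Corrected for GC content and length, Map1lc3a differed by 0.41 (adjusted p = 0.412) and Atg2a by -1.19 (0.0551), neither of them called. Without fasted library 1, 7 members were called (3 higher, 4 lower). TMM scaling moved the median of all genes from -0.19 to -0.07 and gave 3 members higher and 0 lower.

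At ZT14, 1 member was called in RiboTag RNA, where 5.29% of all genes were called (4.15% higher, 1.14% lower). Lamp1 was at 576, 565, 572 and 462 in ad libitum and at 9854, 7613, 10641, 8281 and 6916 in fasted libraries (3.98, SE 0.32, adjusted p = 1.88e-07, a 15.8-fold ratio on the value + 1 scale). Without fasted library 3, Ulk2, a kinase gene of the initiation complex, was called too (1.61, adjusted p = 0.0216). Map1lc3a (1915, 1650, 2613 and 1108 against 6182, 3376, 5654, 2618 and 3012) and Npc1 (580.5, 527, 602 and 474 against 261, 316, 222, 420 and 345) did not overlap either, in the same directions as in sorted cells, with adjusted p of 0.098 and 0.126. For Npc1 the RiboTag differences were -0.87 at ZT2 (adjusted p = 0.0997) and -0.83 at ZT14. Outside the 40, Atg2b differed by -2.02 at ZT2 and -1.86 at ZT14 in RiboTag RNA, and Tsc2, a subunit of the brake on mTORC1, by -1.86 and -1.77, all called. Of 33 lysosomal hydrolase and membrane genes, limma called 0 at either time, with 7 and 4 at an unadjusted p under 0.05. The share of all genes at that unadjusted p is not given for these comparisons, so these counts have no background to be read against.

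Ctsd, Sqstm1 and Mcoln1, which rose in sorted cells, did not pass in RiboTag RNA, where their ad libitum values lay above those of sorted cells. Ctsd was at 14609, 11917 and 9351 in ad libitum and at 12931, 20362, 23241, 14867 and 17647 in fasted RiboTag libraries at ZT2. Mcoln1 was at 1051, 1317 and 1448 in ad libitum and at 1612, 1864, 1464, 1259 and 1376 in fasted RiboTag libraries at ZT2. Sqstm1 was at 19509, 19919 and 24836 against 19812, 21493, 15795, 21900 and 17838. In all 3 genes the groups overlapped. The difference between RiboTag and sorted cells in the fasting difference was called for 4 members at ZT2, all with a smaller or opposite difference in RiboTag, where 6.72% of all genes were called (3.61% higher, 3.11% lower): Sqstm1 (-1.20, SE 0.31, adjusted p = 0.015), Atg16l1 (-1.46, SE 0.39, adjusted p = 0.0185), Becn1 (-0.90, SE 0.26, adjusted p = 0.0295) and Atg4b (-0.88, SE 0.28, adjusted p = 0.0426), the protease that trims LC3 proteins. For Mcoln1 (-1.39) and Lamp2 (-1.35, adjusted p = 0.0512) the test was not passed. Lamp2 was called in 10 alternatives, among them the GC and length correction (-1.29, adjusted p = 0.0298), edgeR (0.0422), TMM scaling (0.0448), and the fit without RiboTag fasted library 3 (-1.70, adjusted p = 0.00792), the library in which it was high. Mcoln1 was called without sorted ad libitum library 2 (0.0499). At ZT14, 0 of 40 were called by limma, 7 had an unadjusted p under 0.05, and the shares of all genes were 1.03% and 13.5%. Mcoln1 was called there without sorted ad libitum library 3 (-2.17, adjusted p = 0.0353) and Atg4b without sorted fasted library 5 (-1.05, adjusted p = 0.0436). Each of the 4 calls was lost under at least 1 alternative: Sqstm1 with the GC and length correction (-0.77, adjusted p = 0.193) and without RiboTag ad libitum library 3 (0.0508), Atg16l1 with edgeR (0.0885), with the replicate block (0.0574) and without library 2 (0.059) or 3 (0.055), Becn1 with the correction (0.186), edgeR (0.0928), the block (0.0913) and without any 1 of the 3 ad libitum libraries (0.0623 to 0.0768), sorted ad libitum library 4 (0.0607) or RiboTag fasted library 5 (0.0702), and Atg4b under 14. With edgeR the split was 1 higher and 2 lower. Across the 40 members, the sorted and RiboTag fasting differences correlated at r = 0.75 (Spearman's rho 0.61) at ZT2 and 0.69 (0.42) at ZT14, and 26 of 40 had the same sign each time. Lamp1, at 3.22 and 3.41 at ZT2, lies far from the other members on both axes. The same figures over all genes were not computed. These points share libraries within each axis and are given as a description. The summed astrocyte marker level was 21327 to 157176 in ad libitum and 16781 to 314055 in fasted RiboTag libraries, and 0 of 9 astrocyte markers were called there. In ad libitum libraries the summed oligodendrocyte level was 14307 to 174797 in RiboTag and 1096 to 1493 in sorted cells. The microglial level was 1283 to 23939 and 3.95 to 85.8, and the AgRP neuron level 37377 to 145752 and 196420 to 470703, in the same order. RiboTag levels are therefore not read here as those of AgRP cells alone. At ZT2, 2 of 5 POMC neuron markers (median difference 0.87), 2 of 12 markers of other hypothalamic neurons (1.15) and 1 of 10 AgRP neuron markers were called higher with fasting in RiboTag RNA and 1 of 4 markers of oligodendrocyte precursors lower, and at ZT14 none of these was. Their part in the members' differences was not tested.

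**Figure D3:**
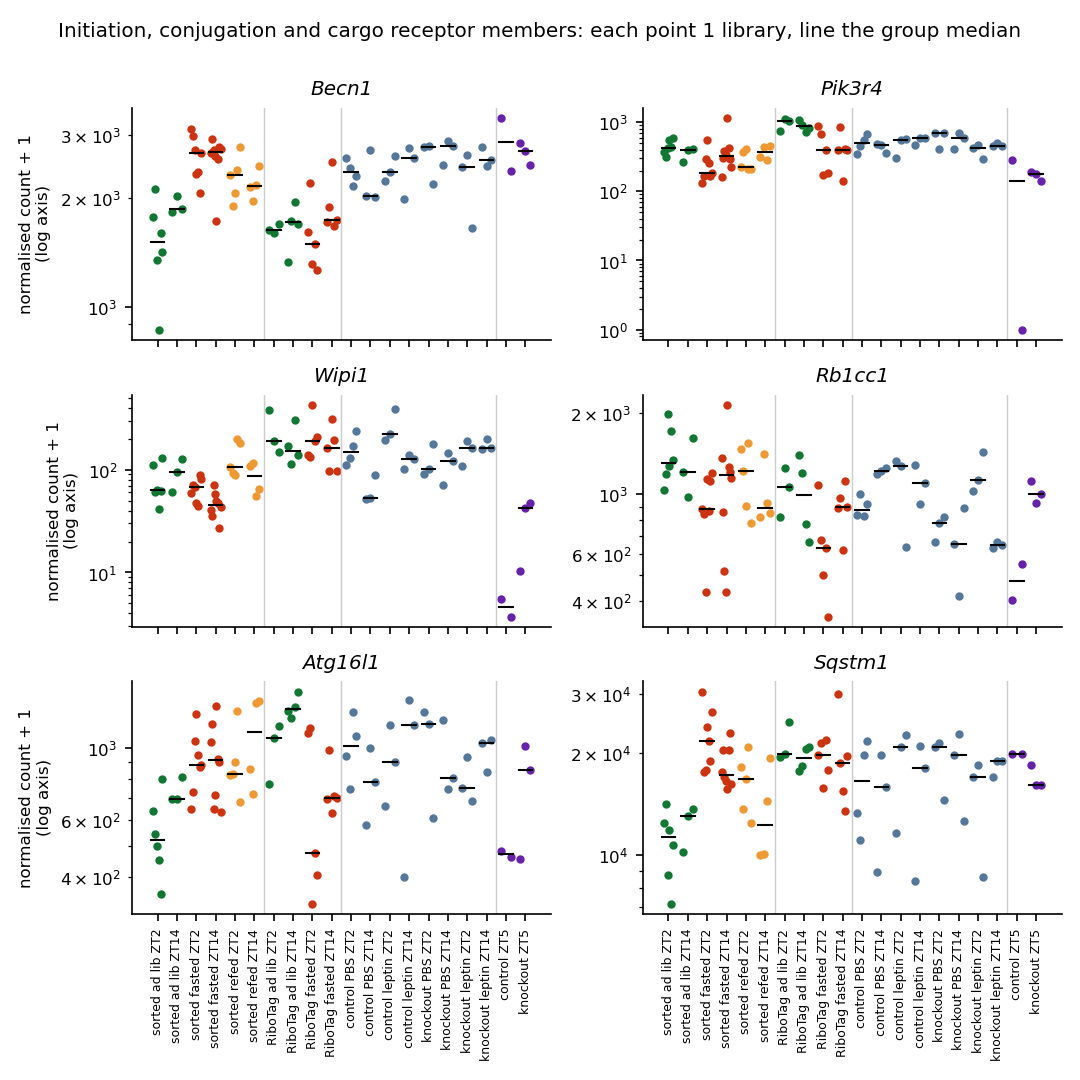
Normalised count plus 1 (log axis) of Becn1, Pik3r4, Wipi1, Rb1cc1, Atg16l1 and Sqstm1 in every library of the 20 groups; each point is 1 library and each line a group median. Wipi1 lies at 2.72 to 46.8 at ZT5 and at 25.8 or more in every other library, and the fasted and ad libitum ranges of Sqstm1 are apart in sorted cells and overlap in RiboTag libraries.

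No member passed the test between the times of day. Between ZT14 and ZT2, limma called 0 of 40 members in each of 7 comparisons, with 1, 2 and 3 members at an unadjusted p under 0.05 in sorted ad libitum, fasted and refed libraries, 0 and 3 in RiboTag ad libitum and fasted, and 2 and 0 in control PBS and knockout PBS. Of all genes, 0%, 0.281%, 0.0268%, 0%, 0%, 0.00717% and 0% were called in these comparisons in that order, and 2.77%, 9.87%, 7.62%, 0.596%, 8.94%, 4.96% and 4.96% had an unadjusted p under 0.05. Optn in fasted sorted cells had the smallest adjusted p, at 0.0988: its lowest, median and highest were 926, 1123 and 1285 at ZT2 and 662, 773 and 922 at ZT14, which do not overlap (-0.56, SE 0.15). Atg3 in refed sorted cells differed by 1.32 (SE 0.35, adjusted p = 0.259), and it was called without refed library 1 at ZT2, the one that stood apart (1.73, adjusted p = 0.00674). In control PBS libraries Wipi1 was at 111, 128, 168 and 238 at ZT2 and at 51.2, 52.1 and 87.7 at ZT14, without overlap but with an adjusted p of 0.466 (-1.31, SE 0.34). The knockout's ZT14 minus ZT2 difference set against that of the control gave 0 called members too, with 3 at an unadjusted p under 0.05, where the shares of all genes were 0% and 4.16%.

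The targeted gene Arntl, which encodes BMAL1, was at 616, 291, 1125 and 1027 in control PBS libraries at ZT2 and at 332, 526 and 246 in knockout PBS libraries at ZT2, and at 259, 422 and 298 against 395, 230 and 224 at ZT14. These ranges overlap at both times. At ZT5 it was at 750 and 390 in the libraries labelled control and at 540, 470 and 491 in those labelled knockout. Gene counts include reads from outside the deleted exons, so these levels do not test the deletion.

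Leptin against PBS called 0 of 40 members by limma in each of 4 comparisons, with 1 member at an unadjusted p under 0.05 in control libraries at ZT2 and at ZT14 and in knockout libraries at ZT14, and 3 in knockout libraries at ZT2. Of all genes, 0.0215%, 0%, 0.423% and 0.0861% were called (control ZT2, control ZT14, knockout ZT2, knockout ZT14), and 2.14%, 2.75%, 8.66% and 5.25% had an unadjusted p under 0.05. Wipi1 had the smallest p in control libraries at both times. It was at 195, 220 and 384 after leptin at ZT2 (0.72, SE 0.34) and at 101, 139 and 126 at ZT14, above the 3 PBS libraries (0.96, SE 0.36, adjusted p rounding to 1 both times). Rb1cc1 in knockout libraries at ZT2 was at 1029, 1126 and 1437 after leptin and at 666, 780 and 824 after PBS, without overlap (0.65, SE 0.25, adjusted p = 0.406). Among the fasting genes, Lamp1 was at 265 to 1046 in all 25 libraries of this set. The 95% interval of the leptin difference lay within 1 log2 unit for 32, 31, 22 and 32 of the 40 members in the order above, and for the rest a change of that size could not be told from none.

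Knockout against control also called 0 of 40 members by limma in each of 4 comparisons of the leptin set and 0 of 38 tested at ZT5, with 1 (PBS ZT2), 5 (PBS ZT14), 1 (leptin ZT2), 2 (leptin ZT14) and 4 (ZT5) at an unadjusted p under 0.05. Of all genes, 0.0215%, 0.00717%, 0.00717%, 0.0215% and 0% were called in that order, and 5.39%, 7.6%, 1.95%, 4.72% and 8.94% had an unadjusted p under 0.05. Rb1cc1 had the smallest p in 3 of the 5. It was at 653, 416 and 890 in knockout and 1185, 1218 and 1255 in control PBS libraries at ZT14 (-0.97, SE 0.25, adjusted p = 0.203), and at 631, 664 and 648 against 1283, 921 and 1097 after leptin at ZT14 (-0.75, SE 0.25, adjusted p = 0.875). Neither pair of groups overlapped, and the fitted direction was the opposite at ZT5, with 1117, 925 and 1002 in libraries labelled knockout and 403 and 550 in those labelled control (1.10, SE 0.24, adjusted p = 0.511). Atg3 in PBS libraries at ZT14 was at 326, 225 and 628 against 489, 1891 and 1779 (-1.72, SE 0.57, adjusted p = 0.396), with overlap. Control PBS library 1 at ZT14 was the low one in Atg3 and also in Map1lc3a (555, against 1884 and 1797), Mcoln1 (250, against 1001 and 924) and Sqstm1 (8929, against 19726 and 15924).

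**Figure D4:**
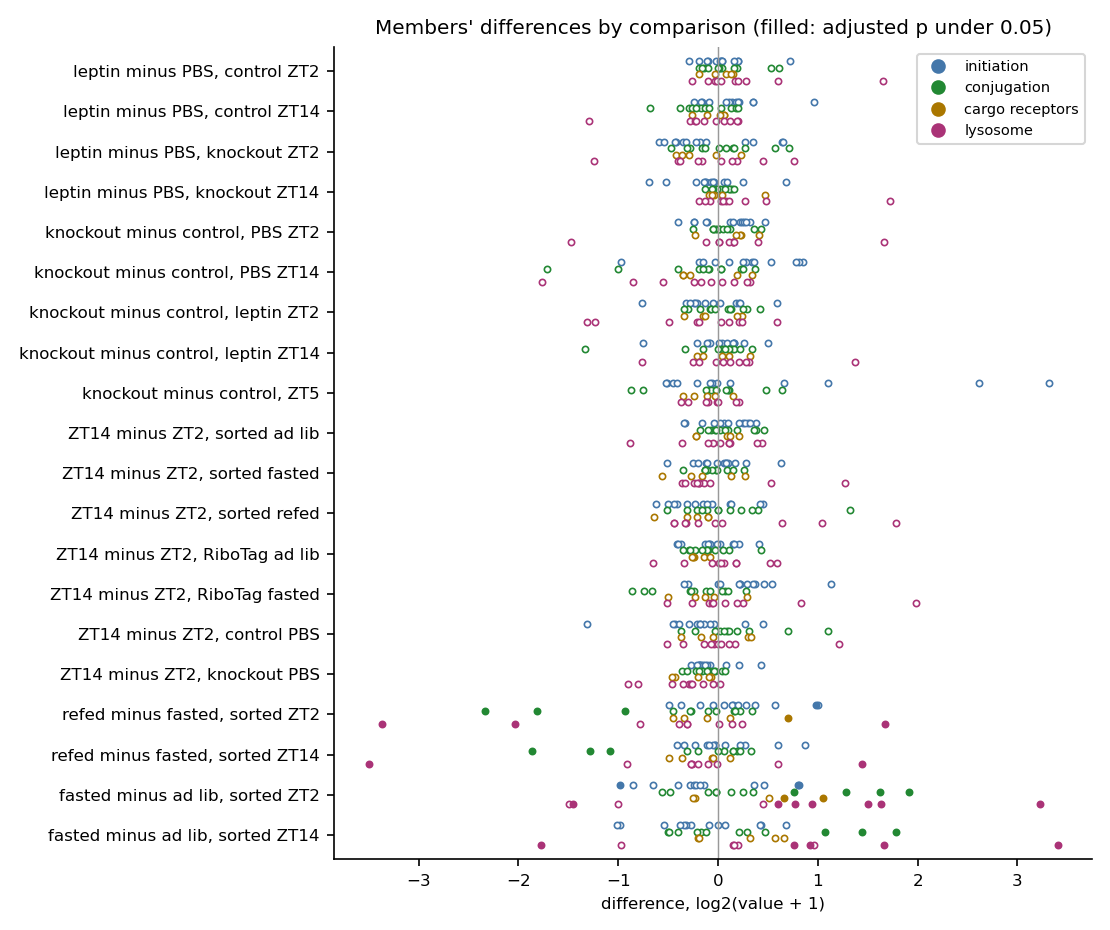
Difference on the log2(value + 1) scale of each member (points, coloured by role) in 20 comparisons; filled points have an adjusted p under 0.05. Filled points appear only in the 4 comparisons of feeding at the bottom, and the leptin, genotype and time comparisons have none.

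Libraries of the ZT5 set, whose treatment is not given, resembled the fasted libraries in several members. Lamp1 was at 6765 and 5996 in the libraries labelled control and 5840, 7099 and 6124 in those labelled knockout, inside the range of the 25 fasted libraries (4708 to 20674) and above all 50 others (265 to 1540). Map1lc3a was at 4733 to 5985 in the 5 ZT5 libraries and at 447 to 3172 in the 50 others, and Atg101 at 1579 to 1760 against 451 to 1106. Npc1 was at 180 to 267, below all 50 others (376 to 1173) and inside the fasted range (147 to 421). These members were not alone. Of 14001 genes looked at, 94 were higher and 6 lower in every fasted and ZT5 library than in all 50 others, and 2 of those higher, named after their values were seen, were Cebpb at 42.5 or more against 17.1 at most and Alyref at 545 or more against 81.8 at most. The ribosomal precursor Rn45s was at 1577 to 148448 against 50805 to 963336, with overlap. Both sorted and RiboTag fasted libraries share this profile with a set whose labels name no fast, and what the shared profile comes from was not tested. No label gives a date or run for the libraries, so the fast and any unrecorded difference in handling cannot be told apart. The refed libraries are among the 50 others, so this holds for refed against fasted libraries too.

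**Figure D5:**
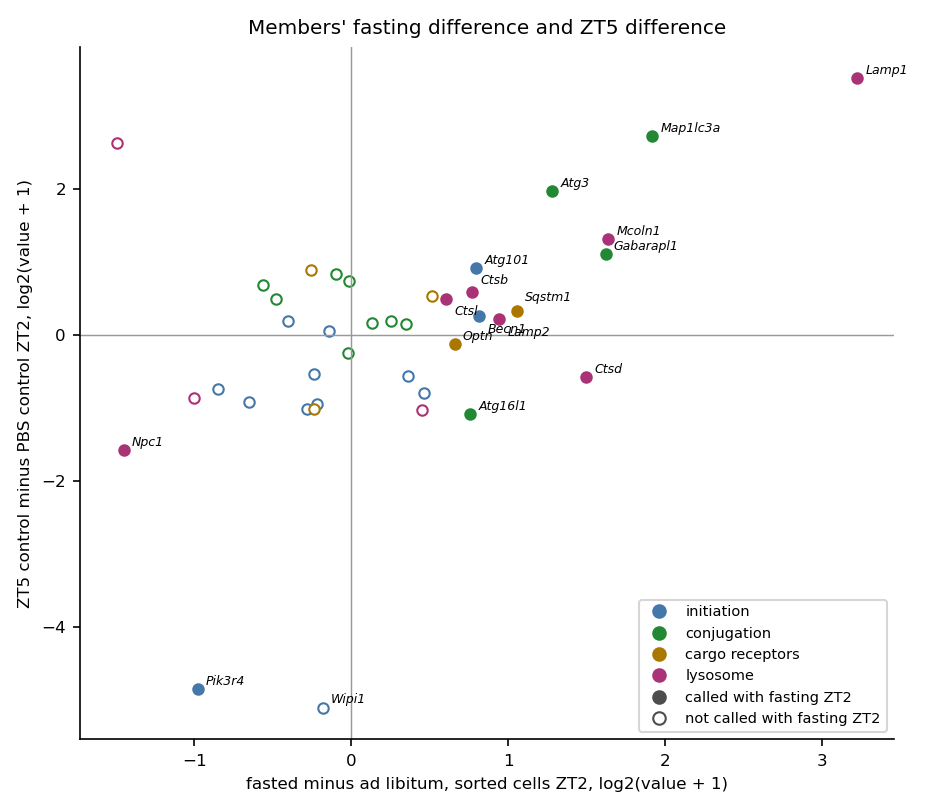
Fasted minus ad libitum difference in sorted cells at ZT2 (horizontal) against the difference of ZT5 control minus PBS control at ZT2 (vertical), both on the log2(value + 1) scale, for the 40 members coloured by role; filled points were called with fasting. Lamp1, Map1lc3a and Atg3 lie at the upper right and Npc1 at the lower left, while Wipi1 (-5.11 vertically) and Ctsd (-0.57 vertically) leave that diagonal.

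Set against control PBS libraries at ZT2, in a comparison added after the data had been seen, the ZT5 libraries labelled control had 9 members called higher and 8 lower, where 34.5% of all genes were called (13% higher, 21.5% lower). Lamp1 (3.51, SE 0.41, adjusted p = 4e-07), Map1lc3a (2.73, SE 0.45, adjusted p = 4.97e-05), Atg3 (1.97, SE 0.57, adjusted p = 0.00854), Gabarapl1 (1.11), Atg101 (0.91) and Ctsb (0.59) were higher and Npc1 (-1.58, SE 0.30, adjusted p = 0.000209) and Pik3r4 lower, as with fasting. Of the 16 members called with fasting at ZT2, 13 had the same sign here and 8 of those were called. The opposite sign was seen in Atg16l1, Optn and Ctsd. Of all 5528 genes called with fasting at ZT2 and tested here, 73.4% had the same sign. Neither comparison shares a library with the other.

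Further members were called at ZT5, most of them not called with fasting. Wipi1 was nearly gone, at 4.48 and 2.72 in the libraries labelled control and 111, 128, 168 and 238 in PBS libraries (-5.11, SE 0.49, adjusted p = 2.64e-08). In libraries labelled knockout it was at 9.36, 41.3 and 46.8. Map1lc3b (0.74), Gabarapl2 (0.83) and Bnip3l (0.88) were higher, and Rb1cc1 (-0.92), Ulk1 (-1.01), Atg13 (-0.80), Nbr1 (-1.01) and Atg16l1 (-1.08) lower. Atg16l1 had been called higher with fasting at ZT2. By role, 5 of 13 initiation genes were lower and 1 higher, and 5 of 12 conjugation genes were higher and 1 lower. Pik3r4 was at 285 and 0, a difference whose call was lost without library 2 (adjusted p = 0.159). With the GC and length correction, which moved the median of all genes from -0.19 to 0.19, the split was 16 higher and 2 lower. The Rb1cc1 difference was then 0.09 and that of Npc1 -0.57 (adjusted p = 0.121), and Ulk1 (-0.08), Nbr1 (-0.12), Atg13 (-0.24) and Atg16l1 (-0.56) lost their calls too. Without the library labelled control 1 or 2, 10 or 11 members were called, with the single library left assumed to vary like the other groups, and Wipi1, Lamp1, Map1lc3a, Npc1, Atg101 and Bnip3l were called both times. The set, time and treatment of these groups cannot be told apart.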

How the data were processed

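RNA of 80 libraries was measured by SMART-seq v4 and Nextera XT sequencing, per the labels' protocols. The deposited values are normalised counts per gene, a signal scaled per library by the authors. The submitters' processing notes list STAR 2.5.1, featureCounts of Subread, DESeq, DESeq2, R 3.5.1 and mm10, with no role or order, and strand and multimapping settings are not given in the sources used here. In 79 libraries the values were whole multiples of the value of 1 read (tolerance 0.1), which gave the depths stated and the reads that edgeR was run on. An interval on depth covers counting error only.

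Each experiment was fitted separately with limma 3.58.1 (R 4.3.3) on log2(value + 1), so that differences of low genes are understated. A gene was tested where its value reached 10 in a number of libraries no smaller than the smallest group, with Benjamini-Hochberg adjustment over all of them and a threshold of 0.05. Sorted and RiboTag fasting differences were compared in a joint fit, as were the 2 added comparisons across sets. Alternatives were a pseudocount of 10, no filter, TMM scaling, edgeR 4.0.16 quasi-likelihood on recovered reads (which leaves out sorted ad libitum library 4 at ZT2), a correction for GC content and transcript length by splines, the replicate number as a block, and each library left out in turn. Members, other lists, markers and tests were chosen with earlier results of these data known. All 40 members could be named. Those described singly in a comparison were the called ones and the 2 others with the smallest p per role, and at most 2 called genes per other list. Other uncalled members given a value, such as Map1lc3b, Gabarapl2 and Mitf, were chosen after their values were seen, as were the genes named from alternatives. Self-tests were run on simulated data. Exons of 14 members overlap another gene, 8 of them a protein-coding one: Becn1, Lamp1, Ctsb, Sqstm1, Npc1, Ctsd, Map1lc3b and Atg9a.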

Additional observations from a re-analysis of the deposited data

Results flagged for a closer look

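A library far from the rest of its group was looked for in 72 groups of values, of which chance gives about 5%. The search did not cover every member in every group, so members not named here can have outlying libraries too. Gabarap, for example, was at 33893 in RiboTag fasted library 3 at ZT2. Lamp1 was low at 462 in RiboTag ad libitum library 4 at ZT14, and high at 20674 in RiboTag fasted library 3 and at 10458 in sorted fasted library 1, both at ZT2. For Lamp2, RiboTag fasted library 3 at ZT2 was high at 3418, sorted ad libitum library 4 at ZT2 was low at 652, and sorted fasted library 5 at ZT14 was low at 784.

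The fasting difference at ZT2 was smaller or opposite in RiboTag than in sorted cells by the test of the difference itself for Sqstm1 (-1.20), Atg16l1 (-1.46), Becn1 (-0.90) and Atg4b (-0.88).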

How the results depend on the processing

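Of 75 member calls over all comparisons, 28 held under every alternative run and 47 were lost under at least 1. Of 31 comparisons, 21 called 0 members, and 18 of those called 0 under every alternative run.

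With the GC and length correction, 13 members were called in refed against ad libitum libraries at ZT2, 1 and 2 with fasting in RiboTag at ZT2 and ZT14, and 2 for RiboTag against sorted fasting at ZT2. The Rb1cc1 difference between ZT5 and PBS control libraries changed sign under it, to 0.087. With edgeR, 3 members were called for PBS control against ad libitum. In choices made after seeing the data, leaving out the doubted libraries gave 13 (fasting ZT14, sorted), 2 (refed against ad libitum ZT2), 5 and 4 (RiboTag fasting ZT2 and ZT14), 2 (RiboTag against sorted ZT14), 9 (ZT5 against PBS) and 3 (PBS against ad libitum). Fewer samples entered these fits; beyond that, the cause was not tested.

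Pairs of libraries with the same replicate number had a median correlation of -0.00079 in the sorted set and -0.0057 in RiboTag. Other pairs had -0.00087 and -0.006. In the leptin set the medians were 0.033 and -0.021, and at ZT5 -0.014 and 0.014. Of same-number pairs, 14 of 65 correlated over 0.1 in the sorted set, 7 of 22 in RiboTag, 23 of 78 in the leptin set and 0 of 2 at ZT5. Other pairs were not counted that way, and whether the numbers pair libraries was not tested. With the replicate number as a block, the counts were 2 for RiboTag fasting at ZT14, 1 for RiboTag against sorted at ZT2, 5 for ZT5 against PBS and 0 for PBS against ad libitum, and 17 and 8 for sorted fasting at ZT2 and ZT14.

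Leaving out 1 library at a time gave 3 to 12 members for sorted fasting at ZT14 (lowest without ad libitum library 2), 2 to 10 for refed against ad libitum at ZT2 (lowest without refed library 4), 0 to 1 for time in refed cells, 1 to 7 for RiboTag fasting at ZT2, 1 to 2 at ZT14, 1 to 6 and 0 to 1 for RiboTag against sorted at ZT2 and ZT14, 0 to 1 for genotype at ZT5 (1 without the library labelled control 1, which leaves 1 control library, at 0 for the gene called, and a spread taken from the libraries labelled knockout), 10 to 18 for ZT5 against PBS and 2 to 8 for PBS against ad libitum. Without filtering on low values the median of all genes with fasting at ZT2 in sorted cells was -0.17. Groups of 2 and 3 libraries limit the ZT5, leptin and genotype comparisons, and Tfeb and Mitf are near the lowest values measured.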

Other observations

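Outside the members, 10 of 35 mTORC1 and AMPK genes were called higher with fasting in sorted cells at ZT2 and 11 lower, and with refeeding 7 were called higher and 4 lower. Of all genes, 18.3% were called higher and 19.2% lower with fasting at ZT2, and 10.8% and 11.1% with refeeding at ZT2. Genes that bring mTORC1 to the lysosome went both ways with fasting. Rragd (-0.78, adjusted p = 0.00584), Lamtor5 (-0.78, adjusted p = 0.00796) and Slc38a9 (-0.91, adjusted p = 0.00379), named after their values were seen, were lower, while Rragb and Rragc were higher. Rragc, a Rag GTPase gene, was at 1219 ± 451 (SD, n = 6) in sorted ad libitum, 3613 ± 490 (SD, n = 7) in fasted and 675 ± 293 (SD, n = 5) in refed libraries at ZT2, and differed by -2.5 with refeeding (limma, adjusted p = 9.38e-10). Rragb, its partner, was at 2677 ± 284, 6019 ± 938 and 1792 ± 627 in the same groups and differed by -1.81 with refeeding (adjusted p = 2.53e-09). At ZT14 both were again lower in refed than in fasted libraries by limma (Rragc -2.13, adjusted p = 8.93e-08, Rragb -1.39, adjusted p = 1.63e-06). In ZT5 control against PBS control libraries both were higher, Rragc by 2.5 and Rragb by 1.68. In RiboTag at ZT14 both were called higher with fasting (Rragb 1.07, adjusted p = 0.00689, Rragc 1.25, adjusted p = 0.014), and at ZT2, where the list had 0 genes called higher and 3 lower, neither was.

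Of 17 V-ATPase genes, 4 were called higher, 0 lower and 13 not called in refed against ad libitum libraries at ZT2, where 9.01% of all genes were called higher, among them Atp6v0d1 (1.68, adjusted p = 8.96e-07) and Atp6v1b2 (1.27, adjusted p = 3.6e-05). In control PBS libraries, whose labels name no fast, 3 of 17 were higher than in the same ad libitum libraries: Atp6v1b2 (1.12), Atp6v0d1 (0.84) and Atp6ap1 (0.83). Of all genes, 5.09% were called higher in that comparison. In RiboTag RNA 0 of 17 V-ATPase genes were called with fasting at either time by limma, with 4 and 2 at an unadjusted p under 0.05. For these counts, too, the share of all genes is not given.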
